A study of Mus musculus with 5 samples.

Results

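The genes described here encode the machinery that brings new proteins into the endoplasmic reticulum (ER), cuts their signal peptides, attaches N-linked glycans and helps them fold. They were given as a list of 36 genes in 5 steps, and the brightest probe set whose only gene symbol is the member was taken for each. By this rule 33 members were measured, of 19937 genes with a probe set of their own on the array. The other 3, Srp54a, Srp54b and Sec61g, share their probe sets with further gene symbols and have no value here.

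NSC-34 is a mouse hybrid line described as motor neuron-like, and its RNA was recovered here from precipitates made with anti-FLAG beads. The 3 FLAG-SMN arrays (FLAG-SMN IP) are from cells with a 3XFLAG-flSMN construct, the survival of motor neuron protein that is deficient in spinal muscular atrophy, and the 2 control arrays (control IP) are from NSC-34 cells with no FLAG construct. Both groups had 1% serum to differentiate, doxycycline at 3 µg/ml for 3 days and ultraviolet crosslinking at 400 mJ/cm2, and the comparison asks which RNAs accompany the tagged protein beyond those that the beads retain without it. Whether the construct cells are 1 clone, which promoter drives the construct and whether replicates were separate cultures is not stated in the labels. The spread behind each p-value is therefore that between arrays and may be technical. The cells' total RNA was not analysed here, so no value was set against the level in the cells. A difference between the precipitates therefore cannot be told apart from a difference in RNA level between construct cells and control cells. In bulk RNA, fewer cells with a transcript and less of it per cell cannot be told apart either.

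In the textbook route, the signal recognition particle (SRP) binds a signal peptide as it leaves the ribosome and docks at its receptor on the ER membrane, and the chain then threads through the Sec61 channel. Signal peptidase removes the signal, the oligosaccharyltransferase (OST) moves a preassembled glycan from a dolichol lipid onto asparagine, and calnexin, calreticulin and protein disulfide isomerases assist folding. Apart from the SRP proteins, which are cytosolic, most products of the list are themselves proteins of the ER membrane or lumen. Neurons rely on the route for receptors, channels and secreted cargo.

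Values are log2 probe set signals, and a difference is the FLAG-SMN IP mean minus the control IP mean. Array medians lay between 5.25 and 5.39, and those of the presumed control probe sets between 4.30 and 4.55. FLAG-SMN IP replicate 1 stood apart, with r = 0.964 and 0.968 to its group's other arrays, against r = 0.989 between replicates 2 and 3. Some differences that rest on it are given with and without it, and a difference given once may also depend on it. Smn1, the mouse SMN gene, was at 9.89, 9.50 and 9.46 in FLAG-SMN IP and at 8.10 and 7.64 in control IP (difference 1.74, SE 0.23; limma adjusted p = 0.0877). The species of the tagged SMN is not given, and how far its own transcript contributes to this signal is unknown. Of 6 motor neuron markers, among them Chat and Mnx1, 0 lay at least 2 log2 units above the presumed control median on all 5 arrays. Phox2a, Hand2 and Gata3, from a list of noradrenergic neuroblastoma markers, did, with differences of -0.19, -0.02 and 0.50. The other measured genes of that list were Th (-1.94), Dbh (-2.23) and Chga (-1.88), with limma adjusted p of 0.0957, 0.11 and 0.108. Of the neuronal markers Snap25 gave -2.14 (limma adjusted p = 0.131), Map2 -1.09, Nefl -0.99, Nefm -0.36, Tubb3 -0.04 and Stmn2 0.12. Th, Dbh, Chga and Snap25 lay lower on every FLAG-SMN array than on either control array and were further from zero than any gene of the ER list; the part of such marker differences in the values given by step was not tested. Markers of astrocytes, oligodendrocytes, microglia, fibroblasts and endothelium had 0 genes at that level.

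No member passed the adjusted threshold of 0.05, which 0.0319% of all 28187 probe sets passed, and the lowest adjusted p among members was 0.262 in limma, for Dad1. At an unadjusted p under 0.05, 3 members were on the higher side (Srp9, Pdia4 and Pdia6) and 3 on the lower side (Ssr2, Spcs2 and Dad1). Without control IP replicate 1 there were 2 such members, Spcs2 and Sec61a1, and without FLAG-SMN IP replicate 3 there were 3, Ssr2, Spcs2 and Dad1. From all 5 arrays, the 3 members in each direction are 9.09% of those measured, beside 4.14% higher and 6.31% lower (10.4% together) among all probe sets. All members were bright, and among the 6308 genes at least as bright as the dimmest of them the shares were 5.96% higher and 12.5% lower. The FLAG-SMN arrays lay wholly above both control arrays at 5 members and wholly below at 6, or 33.3% together. Of all probe sets 12.1% lay wholly above and 13.2% wholly below, 25.3% together. Among the 6308 genes at least as bright as the dimmest member, 13.5% lay wholly above and 21.9% wholly below. The median difference over the 33 members was -0.1, with 14 positive and 19 negative, and it was -0.054 over genes of that brightness. The members' shares were near these backgrounds, and the differences given by step are values and not calls.

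**Figure D1:**
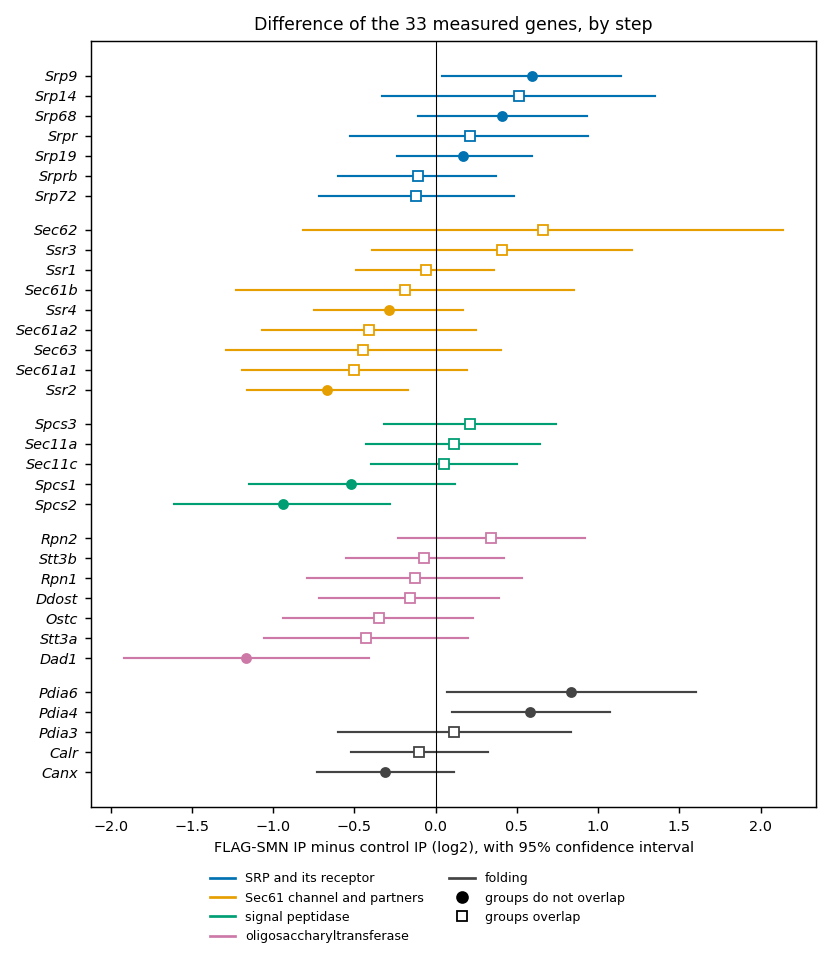
Log2 difference of each of the 33 measured genes (x axis, FLAG-SMN IP minus control IP, with its 95% confidence interval from limma), grouped and coloured by step. Filled circles mark genes whose groups do not overlap on the arrays and open squares those that overlap. Dad1 has the most negative difference (-1.17) and Pdia6 the most positive (0.83).

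Genes of the SRP and its receptor had 5 of 7 positive differences, while 54.9% of genes as bright as the members had negative ones. The step's median value was 9.26, 8.74 and 8.92 in FLAG-SMN IP and 8.66 and 8.71 in control IP. The median difference was 0.21 and the range from -0.12 to 0.59. Without FLAG-SMN IP replicate 1 the median was 0.16 and Srpr changed sign, to -0.03. Srp9, which with Srp14 forms the SRP domain that slows elongation, was at 10.49, 9.85 and 10.08 in FLAG-SMN IP and at 9.60 and 9.50 in control IP. Every FLAG-SMN array was above both controls, and replicate 1 was the highest. The means were 10.14 ± 0.32 (SD, n = 3) and 9.55 ± 0.068 (SD, n = 2). The difference was 0.59 (SE 0.23, 1.51-fold; limma unadjusted p = 0.039, adjusted p = 0.439), and 0.42 without replicate 1. A dimmer Srp9 probe set gave -0.09 (limma adjusted p = 0.97), so the 2 probe sets of this gene disagreed in sign.

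Srp14 itself had a difference of 0.51, but its groups overlapped and the value came largely from FLAG-SMN IP replicate 1, which was 1.06 above the mean of replicates 2 and 3. Without that array it was 0.16. Srp68, a large SRP protein that pairs with Srp72 on the RNA, gave 0.41. Srp19, which helps load the signal-binding subunit, gave 0.17. Both kept the groups apart, but narrowly. The lowest FLAG-SMN IP and highest control IP values were 8.75 and 8.71 for Srp68, and 7.80 and 7.74 for Srp19. Srp72 was at 9.06, 8.58 and 8.92 in FLAG-SMN IP and at 8.68 and 9.26 in control IP. Its groups overlapped, with the second control array the highest of all. At -0.12 (limma adjusted p = 0.967) it was the most negative of this step. The subunits of the SRP receptor, Srpr (0.21) and Srprb (-0.11), also overlapped between groups. The SRP RNA had no probe set with a name on the list used here.

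Genes of the Sec61 channel and its partners had 7 of 9 negative differences, beside 54.9% of genes as bright as the members. The median difference was -0.29, or -0.13 without control IP replicate 2. The step's median value overlapped between groups, at 8.90, 8.73 and 9.10 in FLAG-SMN IP and at 8.63 and 9.28 in control IP. The channel subunits Sec61a1 (-0.50), Sec61a2 (-0.41) and Sec61b (-0.19) had negative differences and overlapping groups. For Sec61b the 3 probe sets gave -0.56, 0.18 and -0.19. FLAG-SMN IP replicate 1 was 1.33 below replicates 2 and 3 on the one used, and the difference was 0.25 without it. Sec62 and Sec63, membrane proteins that assist post-translational entry, differed in sign, at 0.66 and -0.45.

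Sec62 had the widest spread of any member. Its log2 values were 8.72, 6.37 and 7.18 in FLAG-SMN IP and 6.53 and 7.0 in control IP. FLAG-SMN IP replicate 1 was far above the other four arrays, and replicate 2 was the lowest of all. The difference of 0.66 (SE 0.62; limma adjusted p = 0.86) became 0.01 without replicate 1. Sec63 went further from zero without that array, from -0.45 to -0.78 (limma unadjusted p = 0.0127, adjusted p = 0.204); replicate 1 lay 0.99 above the mean of the other 2 FLAG-SMN arrays.

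The translocon-associated protein (TRAP) complex, encoded by Ssr1 to Ssr4, sits beside the channel and aids the entry of some signal peptides. Ssr2 was at 10.54, 10.99 and 10.70 in FLAG-SMN IP and at 11.51 and 11.32 in control IP. All FLAG-SMN arrays were below both controls. The means were 10.75 ± 0.23 (SD, n = 3) and 11.41 ± 0.14 (SD, n = 2). The difference was -0.67 (SE 0.21; limma unadjusted p = 0.0152, adjusted p = 0.315), which is 1.59-fold, and it was -0.56 without FLAG-SMN IP replicate 1. Ssr4 also kept the groups apart, by a smaller amount (-0.29). Ssr1 gave -0.06 and Ssr3 0.41, both with overlapping groups. The value of Ssr3 was 0.13 without FLAG-SMN IP replicate 1 and 0.059 without control IP replicate 1.

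Of the 5 signal peptidase genes, Spcs1 and Spcs2 had negative differences. Spcs2, an accessory subunit, was at 9.30, 8.44 and 8.90 in FLAG-SMN IP and at 9.68 and 9.97 in control IP. Every FLAG-SMN array was below both controls, with replicate 1 the nearest to them. The means were 8.88 ± 0.43 (SD, n = 3) and 9.82 ± 0.20 (SD, n = 2). The difference was -0.94 (SE 0.28, 1.92-fold; limma unadjusted p = 0.0126, adjusted p = 0.3). Without FLAG-SMN IP replicate 1 it was -1.15 with adjusted p = 0.0779 in limma, the lowest adjusted p that any member reached under any setting tried.

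Spcs1, another accessory subunit, was at 10.07, 10.16 and 9.54 in FLAG-SMN IP and at 10.70 and 10.18 in control IP. The groups did not overlap, but the second replicates of both groups were nearly equal. Its difference was -0.52 (SE 0.27; limma adjusted p = 0.596). Spcs3, a further subunit, was at 7.86, 7.41 and 7.76 against 7.28 and 7.66, overlapping, with a difference of 0.21 (limma adjusted p = 0.887). The catalytic subunits Sec11a (0.11) and Sec11c (0.05) had overlapping groups as well. The step's median was 0.046, with 3 positive and 2 negative differences, and it was -0.072 without FLAG-SMN IP replicate 1 and -0.13 without control IP replicate 1.

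Of the 7 OST genes, 6 had negative differences, beside 54.9% of genes of like brightness, with a median of -0.16. Dad1, a small subunit needed for the stability of the complex and named as a defender against cell death, was at 9.70, 10.69 and 9.97 in FLAG-SMN IP and at 11.48 and 11.09 in control IP. Both control arrays were above every FLAG-SMN array, and replicate 2 was the nearest of the FLAG-SMN arrays. The means were 10.12 ± 0.51 (SD, n = 3) and 11.28 ± 0.28 (SD, n = 2). The difference of -1.17 (SE 0.32, 95% confidence interval -1.92 to -0.41) is 2.24-fold and had the lowest p of any member (limma unadjusted p = 0.00854, adjusted p = 0.262). It ran from -1.45 to -0.96 as single arrays were left out.

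The catalytic subunits of the 2 forms of OST are Stt3a, which acts on chains as they enter the channel, and Stt3b, which also acts on sites that were skipped. Stt3a gave -0.43 and Stt3b -0.07, both overlapping; the difference between the 2 genes was not tested. Ostc, which ties the Stt3a form to the channel, gave -0.35, Ddost -0.16 and Rpn1 -0.13. Rpn2 was at 9.56, 9.86 and 10.05 in FLAG-SMN IP and at 9.23 and 9.73 in control IP. The groups overlapped, with replicate 1 of FLAG-SMN IP below control replicate 2. It was the single positive member of this step (0.34, SE 0.24; limma adjusted p = 0.768). On all 7 OST genes FLAG-SMN IP replicate 1 was lower than the mean of replicates 2 and 3, by amounts from -0.02 for Stt3b to -0.63 for Dad1. Without it the difference of Ddost was 0.03, and that of Dad1 was -0.96.

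**Figure D2:**
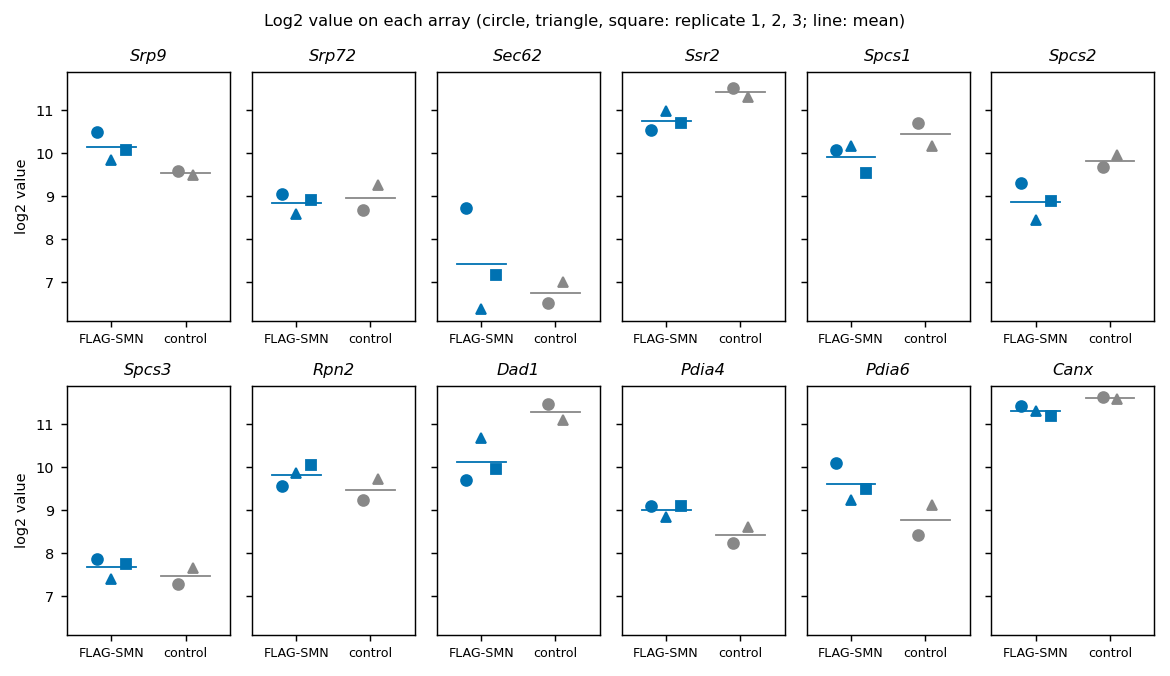
Log2 value (y axis) on each array for the 12 genes described array by array, with FLAG-SMN IP in blue and control IP in grey. Circles, triangles and squares are replicates 1, 2 and 3, and lines are group means. Ssr2, Spcs2 and Dad1 lie lower on every FLAG-SMN array than on either control array, Srp9, Pdia4 and Pdia6 lie higher, and Sec62 shows FLAG-SMN IP replicate 1 at 8.72, apart from the rest.

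Of the 5 folding genes, Pdia6 and Pdia4 had an unadjusted p under 0.05 in limma, both on the higher side. Among genes of like brightness 5.96% were on that side at that p. The step's median difference was 0.11. It was -0.12 without FLAG-SMN IP replicate 1, -0.052 without control IP replicate 1 and 0.42 without control IP replicate 2. Pdia6 was at 10.09, 9.24 and 9.49 in FLAG-SMN IP and at 8.43 and 9.12 in control IP. All FLAG-SMN arrays were above both controls, though replicate 2 only by a little. The means were 9.61 ± 0.43 (SD, n = 3) and 8.77 ± 0.49 (SD, n = 2). The difference was 0.83 (SE 0.32, 1.78-fold; limma unadjusted p = 0.0366, adjusted p = 0.429), and it was 0.59 without FLAG-SMN IP replicate 1 and 0.49 without control IP replicate 1.

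Pdia4 was at 9.09, 8.84 and 9.10 in FLAG-SMN IP and at 8.24 and 8.61 in control IP. The groups did not overlap, and here replicate 1 lay with its group. The means were 9.01 ± 0.15 (SD, n = 3) and 8.43 ± 0.26 (SD, n = 2). The difference was 0.58 (SE 0.20, 1.5-fold; limma unadjusted p = 0.0249, adjusted p = 0.375), and 0.54 without replicate 1. A further Pdia4 probe set, at 3.42 to 4.32 on the 5 arrays, was no brighter than the presumed controls. Pdia3, the isomerase that works with calnexin and calreticulin, gave 0.11 with overlapping groups, and -0.12 without FLAG-SMN IP replicate 1.

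Canx encodes calnexin, the membrane-bound lectin that holds newly glycosylated chains. Its log2 values were 11.42, 11.30 and 11.19 in FLAG-SMN IP and 11.63 and 11.59 in control IP. The groups did not overlap but lay close together. The difference was -0.31 (SE 0.18, 95% confidence interval -0.73 to 0.11; limma adjusted p = 0.653). Calr, which encodes the soluble counterpart calreticulin, gave -0.10 with overlapping groups.

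Several folding genes are known targets of the unfolded protein response through the ER stress response element, to which the factors NF-Y and ATF6 bind, and that element was looked for to see whether its carriers had like differences. The motif searched was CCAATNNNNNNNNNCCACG on both strands, in the 250 bases before and 50 after each RefSeq gene start (build GRCm38.p6); its CCAAT part alone is the common CCAAT box, found in 37.4% of these windows. The whole element was in 37 of 27025 genes (0.137%). Among the measured members 26 had a window, and 3 of these held it, Pdia6, Calr and Canx. They are shown with 20 bases on each side, 5′ to 3′ on the gene's strand. Capitals mark only the matched element's CCAAT and CCACG, or their complements, and further copies of these letters stay in lower case. In Calr the element lies on the opposite strand. The windows are chr12:17266471-17266529 (plus strand) for Pdia6, chr8:84847055-84847113 (minus strand) for Calr and chr11:50325780-50325838 (minus strand) for Canx. All lie upstream of the gene start, from which the element is separated by 79 bases in Pdia6, 143 in Calr and 126 in Canx.
Pdia6: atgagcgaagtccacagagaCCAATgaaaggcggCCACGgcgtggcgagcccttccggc
Calr: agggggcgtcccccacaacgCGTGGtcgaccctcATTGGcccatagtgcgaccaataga
Canx: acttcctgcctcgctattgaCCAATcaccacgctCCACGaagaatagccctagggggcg

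These 3 genes did not have a common difference (0.83, -0.10 and -0.31). With the 7 carriers among the other pathway genes listed here, 10 genes held the element, and their differences ran from -0.39 to 0.83 with a median of 0.028, 6 positive and 4 negative. Hspa5, the ER chaperone BiP and a standard readout of this response, was at 11.15, 10.84 and 11.32 in FLAG-SMN IP and at 10.81 and 11.34 in control IP. Its groups overlapped fully (difference 0.03; limma adjusted p = 0.997). Hsp90b1, another carrier, was at 11.28 in FLAG-SMN IP replicate 1, at 10.20 and 10.56 in replicates 2 and 3, and at 10.01 and 10.74 in control IP. Its groups overlapped (difference 0.31, limma adjusted p = 0.91), and the difference was 0.01 without FLAG-SMN IP replicate 1. A match of letters is a description of the window and not evidence of a site in use, and Pdia4, on the positive side, had no such match in its window.

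FLAG-SMN IP replicate 1 bore on many of these values. It lay more than 0.5 from the mean of replicates 2 and 3 at 16 of 33 members (48.5%), against 25.2% of all probe sets. At 3 members, Sec62, Sec61b and Srp14, it lay more than 1 away (9.09%), near the 6.61% of all probe sets. It was higher at 6 of the 7 SRP and receptor genes and lower at all 7 OST genes. Leaving it out gave 6 members at an unadjusted p under 0.05 in limma, 1 on the higher and 5 on the lower side. The share of all probe sets at that p is not given for fits with an array left out, so such counts have no background beside them. Of the 6, Ssr2, Spcs2, Dad1 and Pdia4 were shared with the 5-array fit, while Srp9 and Pdia6 were replaced by Sec61a2 (-0.63) and Sec63. No member passed the adjusted threshold there either, although 350 probe sets in all did. The part of this array's difference in each result beyond these values was not tested.

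**Figure D3:**
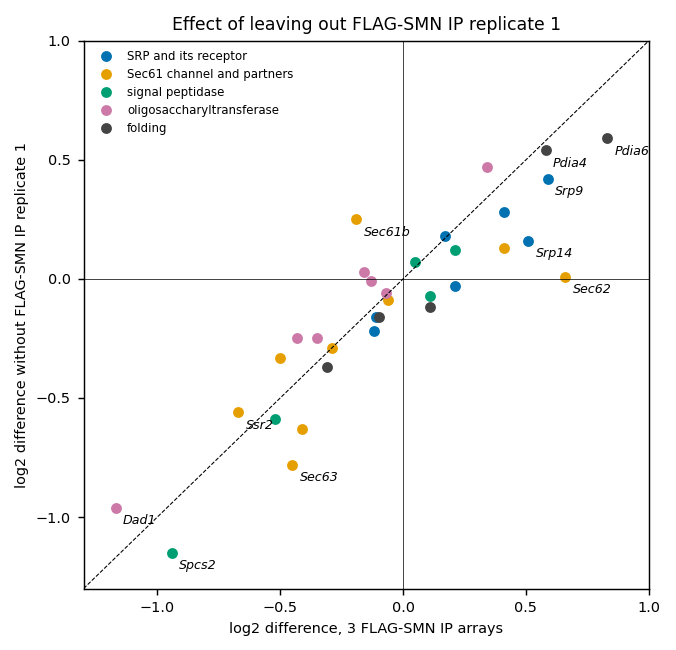
Log2 difference of each of the 33 genes from all 5 arrays (x axis) against the difference without FLAG-SMN IP replicate 1 (y axis), coloured by step, with the line of equality dashed. Sec62 drops from 0.66 to 0.01 and Sec61b crosses from -0.19 to 0.25. Dad1 (-1.17 to -0.96) and Spcs2 (-0.94 to -1.15) move less, and Ssr2 (-0.67 to -0.56) and Pdia4 (0.58 to 0.54) lie nearer to the line.

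Other genes of the route, from lists drawn up by pathway and not by how the genes moved, gave 93 measured genes. Of these 0 passed the adjusted threshold (lowest limma adjusted p = 0.0877), and at an unadjusted p under 0.05 there were 8 on the higher and 12 on the lower side. Among genes at least as bright as the dimmest member, 5.96% were on the higher and 12.5% on the lower side at that p. Of their differences 54.9% were negative. The counts of each list stand beside these shares and call nothing particular to it. The lists were not filtered by brightness and hold dimmer genes too, such as Tram1l1 at 2.36 to 2.69, so this background is not fully like them. The enzymes that build the dolichol-linked glycan used by OST had 20 of 22 negative differences, a median of -0.27, and at an unadjusted p under 0.05 there were 7 on the lower and 1 on the higher side. Alg2, a mannosyltransferase of this assembly, was at 7.55, 7.62 and 7.97 in FLAG-SMN IP and at 9.24 and 9.71 in control IP. The groups were well apart, with a difference of -1.76 (SE 0.23, 3.39-fold, limma adjusted p = 0.0877). Alg2 passed without FLAG-SMN IP replicate 1 (-1.68, limma adjusted p = 0.0291), a fit in which 350 probe sets passed in all. The lowest limma adjusted p of the dolichol list was 0.255 without FLAG-SMN IP replicate 2 and 0.224 without replicate 3. With cyclic loess it was 0.101. Alg8, a glucosyltransferase, gave -1.08 (limma adjusted p = 0.239). The count of 7 was 2 without control IP replicate 1 and 4 without control IP replicate 2, with medians of -0.43 and -0.25.

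Glycan trimming and folding factors beyond the members had 14 of 16 positive differences, a median of 0.32, and at an unadjusted p under 0.05 in limma 5 on the higher and 0 on the lower side. Pdia5, a further disulfide isomerase, was at 8.29, 7.93 and 8.32 in FLAG-SMN IP and at 6.97 and 7.18 in control IP. Every FLAG-SMN array was above both controls (difference 1.11, SE 0.21; limma adjusted p = 0.149), and Txndc5 gave 0.88 (adjusted p = 0.311). Without control IP replicate 1 the list's median was 0.03 and its count 1, and without FLAG-SMN IP replicate 1 these were 0.22 and 3. In the other lists the 2 genes of smallest p went opposite ways: Sil1, an exchange factor of BiP, gave 1.10 and Emc10, a membrane insertase subunit, -0.90; the OST subunit Tusc3 gave 0.70 and Ost4 -0.98; Btf3 gave 0.52 and Get1 -0.60; Edem2 gave 0.55 and Syvn1 -0.39. Among regulators of the unfolded protein response, 0 of 7 had an unadjusted p under 0.05. Xbp1 gave -0.43 and Ddit3 0.83, the latter with 10.16 in FLAG-SMN IP replicate 1 and 7.52 in control IP replicate 2. Without FLAG-SMN IP replicate 1, Ddit3 gave 0.37 and Ost4 -0.52.

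**Figure D4:**
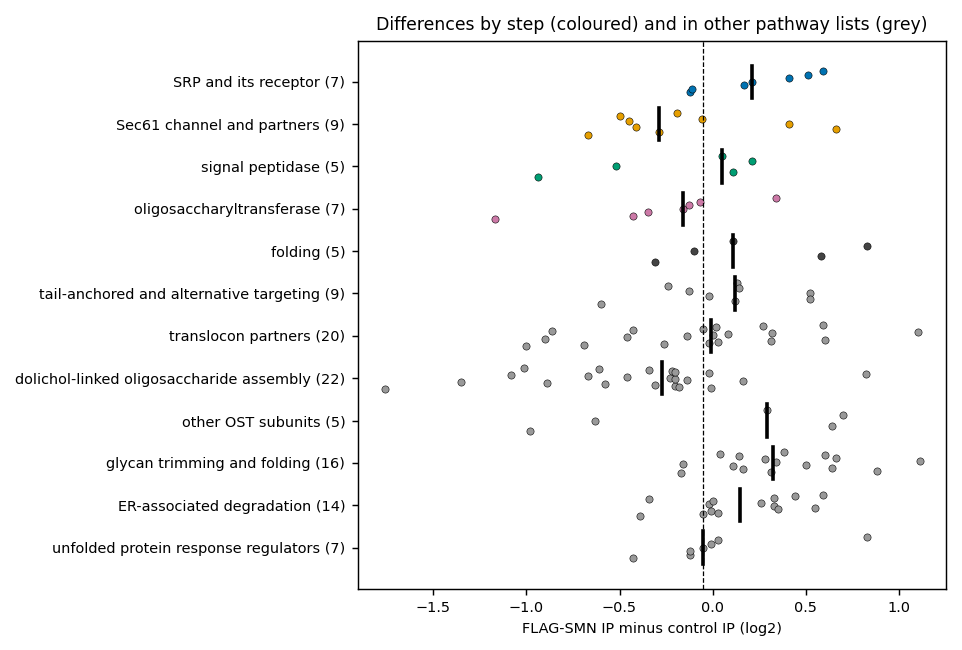
Log2 difference (x axis, FLAG-SMN IP minus control IP) of every measured gene by step of the members (coloured) and by list of other pathway genes (grey), with the number of genes in brackets and the median as a thick bar; the dashed line is the median of all genes at least as bright as the dimmest member (-0.054). The dolichol list lies mostly to the left (median -0.27) and the glycan trimming and folding list mostly to the right (median 0.32).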

How the data were processed

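RNA of 5 anti-FLAG precipitates was hybridised to single-colour Affymetrix arrays. The values that the authors deposited are log2 signals made with RMA per the submitters' processing notes (version and settings not given in the sources used here); their range, 1.28 to 14.15, bears out that scale. Because RMA aligns the arrays' distributions, a difference in total RNA recovered is not visible. Probe sets with IDs below the lowest annotated one (6573 presumed controls) were left out, which kept 28187, of which 21640 carry 1 gene symbol, 1321 several and 5226 none. Gene IDs matched RefSeq (GRCm38.p6) for 21553, changing 0 symbols.

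All 5 arrays entered a 2-sided fit without a block (limma 3.58.1 under R 4.3.3, lmFit then eBayes), with Benjamini-Hochberg adjustment over 28187 probe sets. It was checked on simulated data, where most changes of about the largest size seen among members did not pass the threshold, so a member that did not pass is not shown to be unchanged. Members and lists were chosen with earlier results of these data known. Named array by array were members with an unadjusted p under 0.05 and, in each step, the most positive, most negative and brightest; in other lists, the 2 of smallest p. Hspa5, Hsp90b1 and the promoter search were added after the values were seen. A comparison with protein length was not run, as no protein table was used here. Alternatives were other scalings, filters, moderation, array weights, the replicate block, left-out arrays and the mean of a gene's probe sets. Figures were drawn with matplotlib 3.10.9.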

Additional observations from a re-analysis of the deposited data

How the results depend on the processing

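The count of members past the adjusted threshold was 0 under all 12 alternatives that tested it, with 0.0779 (Spcs2, without FLAG-SMN IP replicate 1) as the lowest adjusted p. At an unadjusted p under 0.05 the 6 members became 3 with the replicate number as a block (Srp14, Spcs2 and Dad1), and 2 to 7 as single arrays were left out, 2 without control IP replicate 1 and 3 without FLAG-SMN IP replicate 3. Deviations of same-numbered arrays correlated at 0.13 for replicate 1 and at -0.2 for replicate 2. These are of opposite sign and there were only 2 shared numbers, so the numbers were not taken as pairs. FLAG-SMN IP replicate 3, which has no same-numbered control, correlated at 0.42 with control IP replicate 2 and at -0.42 with control IP replicate 1. With 2 controls these values mirror each other, and what arrays share across groups was not tested. Over all probe sets the 9 past the threshold became 0 with the replicate block, cyclic loess or all probe sets of the table, 41 when centred on brighter probe sets, 86 with array weights, and 0 to 350 with single arrays left out (350 without FLAG-SMN IP replicate 1). The OST median ran from -0.5 (without control IP replicate 1) to -0.061 as arrays were left out.

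Of the 33 members, 22 kept their sign under every alternative. The other 11 changed it with an array left out: Srp72 (-0.41 to 0.17), Srpr (-0.11 to 0.53), Srprb (-0.32 to 0.094), Sec61b (-0.51 to 0.25), Ssr1 (-0.14 to 0.015), Sec11a (-0.072 to 0.20), Sec11c (-0.13 to 0.22), Rpn1 (-0.51 to 0.25), Ddost (-0.27 to 0.027), Stt3b (-0.30 to 0.16) and Pdia3 (-0.19 to 0.42). With array weights Sec61b gave 0.15, Sec11a -0.014 and Pdia3 -0.024. The cause of these changes was not tested. The counts for the dolichol and folding lists, and the lowest adjusted p of the dolichol list, with arrays left out or cyclic loess were chosen after seeing the data. The number of arrays, 3 against 2, limits the precision of every value.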
